A study of Homo sapiens with 6 samples.

Results

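The cytoplasmic actins and 8 abundant partners of actin were followed on one-colour HG-U133 Plus 2.0 arrays of Kasumi-1, a human acute myeloid leukaemia line with the t(8;21) translocation. The genes are ACTB, ACTG1, CFL1, PFN1, TMSB10, ACTN1, ACTN4, VCL, MYH9 and SRF. On 3 arrays was RNA of cells kept for 24 h in 20 nM homoharringtonine (HHT), a plant alkaloid that blocks translation elongation, and on 3 was RNA of cells kept for 24 h in vehicle. All samples come from 1 cell line grown in medium with fetal bovine serum. The labels number the arrays within each condition and say nothing of separate cultures. The p-values therefore cover the variation among these arrays alone, which may be technical. Probe sets were taken as members when the platform annotation gave 1 of the 10 genes as their sole symbol, and the 3 control probe sets for ACTB were added. The 10 genes are among 21357 that the annotation names on the array. They had 22 of its 54675 probe sets, 19 of them outside the control probe sets. Each of 9 genes had at least 1 probe set of its own. ACTG1 had none, because its 9 probe sets were annotated to ACTG1 and ACTB together.

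Actin monomers assemble into filaments that carry cell shape, movement and division. Profilin (PFN1) delivers monomers to growing ends, thymosins such as TMSB10 hold monomers in reserve, and cofilin (CFL1) severs old filaments. Alpha-actinins (ACTN1 and ACTN4) crosslink filaments, vinculin (VCL) ties them to adhesion sites, and MYH9, the heavy chain of nonmuscle myosin IIA, pulls on them. SRF is a transcription factor that drives many actin genes. It works with coactivators of the MRTF family, which free actin monomers hold in the cytoplasm, or with ternary complex factors of the ELK family, and it binds a short sequence called the CArG box.

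Promoter sequences are shown because SRF is both a member and a known regulator of several of the others. RefSeq promoters of GRCh38.p14 were matched by symbol for 9 of the 10 genes, all except ACTB. The CArG box was searched as CC, then 6 bases that are each A or T, then GG. This pattern reads the same on both strands, and matches could overlap. A box lay in the 250 bases before at least 1 annotated start of SRF, ACTG1 and ACTN1. This was 3 of 9 genes, with 14 starts searched. The window held no box at CFL1, PFN1, TMSB10 and MYH9, whose transcripts fell. It held none at ACTN4, which was not called, or at VCL. Of all genes searched in the same window, 1.45% held a box at any start, and of their 34943 starts 1.165% did. SRF is printed because it holds 2 boxes and its transcript fell, ACTG1 because its probe sets are shared with ACTB, and VCL because its transcript rose and the window holds no box. Capitals mark the boxes, and each line ends at the base before the start.
SRF, chr6:43171019-43171268, plus strand: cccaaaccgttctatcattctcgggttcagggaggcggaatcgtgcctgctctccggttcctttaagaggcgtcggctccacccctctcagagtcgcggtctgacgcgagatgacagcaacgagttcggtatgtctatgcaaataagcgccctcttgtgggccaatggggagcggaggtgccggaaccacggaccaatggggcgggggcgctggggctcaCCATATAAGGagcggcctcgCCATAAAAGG
ACTG1, chr17:81512800-81513049, minus strand: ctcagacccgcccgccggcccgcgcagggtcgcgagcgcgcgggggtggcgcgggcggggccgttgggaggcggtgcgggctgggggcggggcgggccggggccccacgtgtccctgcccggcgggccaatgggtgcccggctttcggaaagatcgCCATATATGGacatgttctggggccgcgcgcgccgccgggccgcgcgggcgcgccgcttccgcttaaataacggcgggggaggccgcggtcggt
VCL, chr10:73997866-73998115, plus strand: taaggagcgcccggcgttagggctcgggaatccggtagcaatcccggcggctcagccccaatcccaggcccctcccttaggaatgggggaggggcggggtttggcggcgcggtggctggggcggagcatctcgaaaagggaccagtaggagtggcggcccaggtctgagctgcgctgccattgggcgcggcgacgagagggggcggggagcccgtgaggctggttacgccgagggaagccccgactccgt
The SRF boxes begin 30 and 10 bases before the start, and the ACTG1 box begins 94 bases before it. In ACTN1 the box CCAAAAATGG begins 171 bases before the third of its 4 annotated starts. A match is a description of the letters and no measured binding, and an absent match says nothing about SRF at that gene.

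Most of the transcripts followed were lower after HHT, and vinculin was higher. At its brightest probe set, 7 of the 9 genes with a probe set of their own fell (ACTB, CFL1, PFN1, TMSB10, ACTN1, MYH9 and SRF). VCL rose, and ACTN4 was not called. Values are log2 signals, so a difference of -1 is a halving, and a probe set was called at an adjusted p under 0.05 in limma over all 32768 probe sets tested. Among the 19 non-control probe sets, 15 passed the filter on dim probe sets, with 12 lower, 1 higher and 2 not called. Across all tested probe sets 23.3% were called lower and 23.0% higher. The median change was -0.65 over the 15 and -0.09 over all tested. The 2 conditions did not overlap in 13 of the 15, and in 55.9% of all tested.

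**Figure D1:**
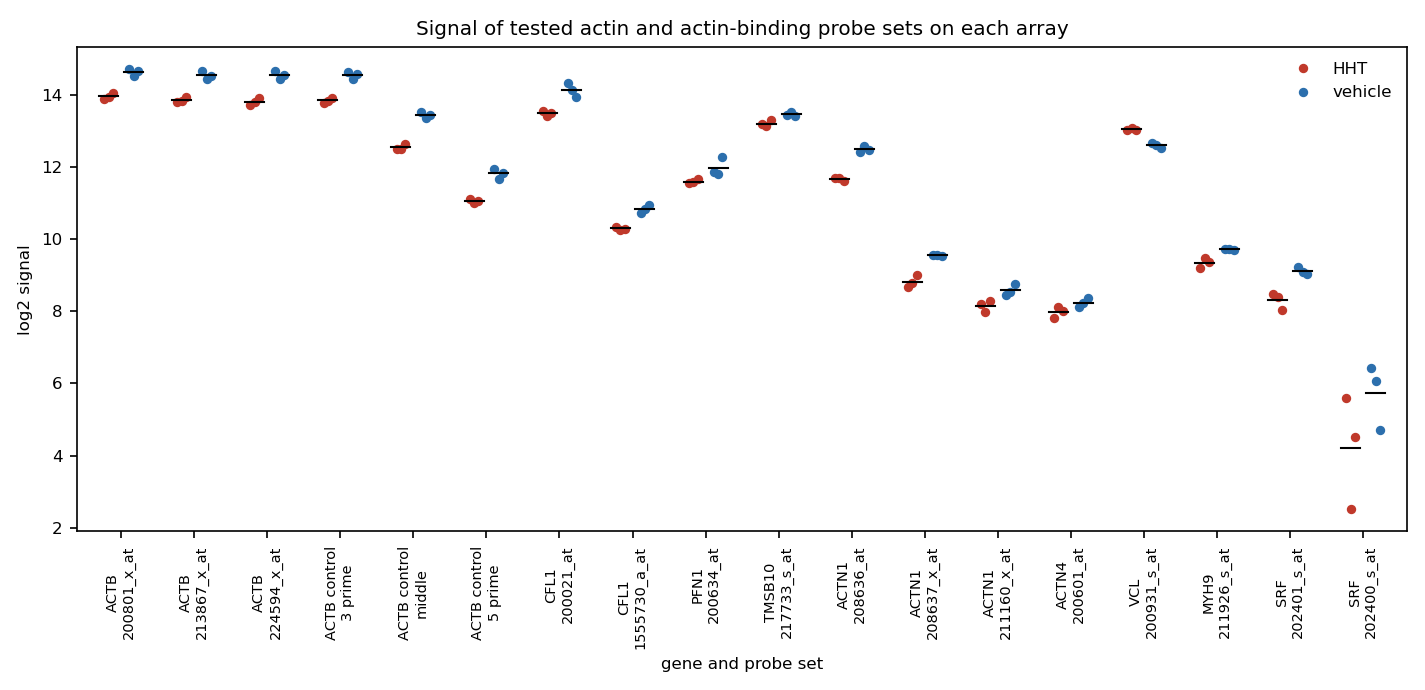
Log2 signal of each tested probe set of the actin and actin-binding genes, and of the 3 ACTB control probe sets, on the 3 HHT arrays (red) and the 3 vehicle arrays (blue), with black bars at the means. The HHT points lie below the vehicle points except at VCL, where they lie above, and at ACTN4 and the dimmer SRF probe set, where they overlap.

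The balance of calls moved under 2 of 4 other scalings of the arrays. As deposited, 49.6% of all calls were higher in HHT. With equal array medians 70.2% were, and with equal hybridisation controls 72.9%, while the median change of all tested probe sets moved to 0.15 and 0.20. Quantile normalization and cyclic loess gave 51.7% each, with median changes of -0.01 and -0.02. The spiked hybridisation controls averaged 11.70 ± 0.0598 in HHT and 11.98 ± 0.0282 in vehicle (SD, n = 3 each). Equal medians left 7 of the 15 probe sets lower and 1 higher, and equal hybridisation controls left 8 and 1. Quantile normalization and cyclic loess each left 11 lower and 1 higher. ACTB, CFL1, ACTN1, SRF and VCL kept their direction and their call under all 4 other scalings tried. Equalising the medians or the hybridisation controls cost PFN1 and MYH9 their calls, and TMSB10 lost its call under all 4.

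Beta-actin, a main subunit of filaments in nonmuscle cells, fell at each of its own probe sets. At the brightest (200801_x_at) the signal was 13.90, 13.93 and 14.07 in HHT, against 14.72, 14.54 and 14.66 in vehicle. Every HHT array lay below every vehicle array. The difference was -0.67 (SE 0.0635, adjusted p = 9.34e-06 in limma), a 1.59-fold lower signal. The other ACTB probe sets differed by -0.69 and -0.74 (adjusted p = 8.26e-06 and 7.37e-06). All 3 are of a design class that can hybridise to related transcripts, and a contribution of other actin transcripts was not tested. With other scalings the change of the brightest probe set was -0.43 at equal medians, -0.39 when hybridisation controls were set equal, -0.31 after quantile normalization and -0.48 after cyclic loess, called under each.

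The control probe sets read ACTB at 3 places along the transcript, and all 3 were lower. At the 3′ end the signal was 13.79, 13.85 and 13.93 in HHT, against 14.63, 14.44 and 14.58 in vehicle, a difference of -0.70. In the middle it was 12.52, 12.50 and 12.65 in HHT, against 13.53, 13.36 and 13.45 in vehicle, a difference of -0.89. At the 5′ end it was 11.12, 11.02 and 11.07 in HHT, against 11.96, 11.68 and 11.85 in vehicle, a difference of -0.76. The conditions did not overlap at any of the 3. Their mean was 12.49 ± 0.0501 in HHT and 13.28 ± 0.106 in vehicle (SD, n = 3 each), a difference of -0.78. The exact permutation p was 0.1, two-sided, the smallest that 3 against 3 arrays can give. The 3′ signal minus the middle one was 1.27, 1.34 and 1.28 in HHT and 1.10, 1.08 and 1.14 in vehicle, without overlap (exact permutation p = 0.1, two-sided). The 3′ signal minus the 5′ one was 2.66, 2.83 and 2.87 in HHT and 2.67, 2.76 and 2.73 in vehicle, which overlap (exact permutation p = 0.5, two-sided). The GAPDH control probe sets had means of 14.22 at the 3′ end and 14.09 at the 5′ end in HHT, and 14.65 and 14.47 in vehicle. The ACTB signal thus fell off more towards the 5′ end than the GAPDH signal, in both conditions. The part of RNA quality in the ACTB difference was not tested beyond these values.

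The 9 probe sets annotated to ACTG1 and ACTB together cannot assign their signal to gamma-actin or beta-actin, and they stand outside the 22. All 9 were lower in HHT, by between -0.48 and -0.55 (adjusted p from 6.82e-06 to 1.88e-04). Their mean was 14.36, 14.37 and 14.39 in HHT, against 15.01, 14.82 and 14.88 in vehicle. The ACTB-only probe sets had a larger drop on the same arrays. Their mean minus that of the shared ones was -0.55, -0.51 and -0.41 in HHT, against -0.32, -0.34 and -0.30 in vehicle. No array of one condition entered the range of the other, and the conditions differed by -0.17. The shared probe sets were also brighter on average, at 14.37 in HHT and 14.90 in vehicle, against 13.88 and 14.58 for the ACTB-only ones. The part of signal level in this difference was not tested. The comparison was chosen after the values were seen and has no test.

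Among the partners of actin monomers, cofilin-1 fell about as far as ACTB. Its brightest probe set (200021_at) had 13.56, 13.42 and 13.50 in HHT, against 14.33, 14.15 and 13.94 in vehicle. The conditions did not overlap, and vehicle varied more than HHT. The difference was -0.65 (SE 0.0869, adjusted p = 1.14e-04 in limma), a 1.57-fold lower signal. A dimmer CFL1 probe set (1555730_a_at) had 10.35, 10.26 and 10.29 in HHT, against 10.72, 10.85 and 10.95 in vehicle, and differed by -0.54 (adjusted p = 2.68e-04). The gene's last 2 probe sets had means of 4.64 and 3.91 in HHT and 4.23 and 2.67 in vehicle, failed the filter and were not tested.

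Profilin-1 and thymosin beta-10 had smaller changes. PFN1 (200634_at) had 11.56, 11.59 and 11.66 in HHT, against 11.87, 11.82 and 12.27 in vehicle. Again there was no overlap, and the third vehicle array stood above the other two. The difference was -0.38 (SE 0.107, adjusted p = 0.0125 in limma), or between -0.47 and -0.24 when each array was left out in turn. Without vehicle replicate 3 it was the smallest of these, and still called. TMSB10 (217733_s_at) had 13.20, 13.13 and 13.30 in HHT, against 13.45, 13.53 and 13.42 in vehicle. All HHT arrays lay below all vehicle arrays, by -0.26 on average (SE 0.0594, adjusted p = 0.00443). After quantile normalization it was 0.03, and likewise 0.03 when hybridisation controls were set equal, neither called. PFN1 differed by -0.15 at equal medians (adjusted p = 0.459). It differed by -0.10 when hybridisation controls were set equal (adjusted p = 0.454).

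The 2 alpha-actinin genes gave different values. ACTN1 (208636_at) had 11.71, 11.70 and 11.62 in HHT, against 12.41, 12.59 and 12.48 in vehicle. No HHT array reached the vehicle range, and the difference was -0.82 (SE 0.0652, adjusted p = 2.86e-06 in limma), a 1.76-fold lower signal. Dimmer ACTN1 probe sets differed by -0.73 (adjusted p = 2.47e-04) and -0.43 (adjusted p = 0.0257), and the dimmest one failed the filter. ACTN4, the other nonmuscle alpha-actinin, had 7.81, 8.13 and 8.00 in HHT, against 8.12, 8.24 and 8.37 in vehicle (200601_at). These overlap at 1 array of each condition, and the difference of -0.26 (SE 0.144, adjusted p = 0.163) was not called. The difference between the changes of the 2 genes was not tested.

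Vinculin was the only one of the 9 genes called higher. Its bright probe set (200931_s_at) had 13.04, 13.08 and 13.04 in HHT, against 12.67, 12.62 and 12.54 in vehicle. The HHT arrays lay close together and above all vehicle arrays. The difference was 0.45 (SE 0.0545, adjusted p = 6.11e-05 in limma), a 1.36-fold higher signal. It was between 0.41 and 0.47 when each array was left out in turn, and between 0.53 and 0.73 under the 4 other scalings, called in each. A second VCL probe set (200930_s_at), with means of 5.03 in HHT and 4.03 in vehicle, failed the filter. The log2 signal of VCL minus that of ACTN1 on the same array was 1.33, 1.38 and 1.42 in HHT, against 0.26, 0.03 and 0.06 in vehicle. Adhesion sites hold both proteins, and this difference was 1.26 larger in HHT. The pair was chosen after the values were seen and has no test, and signals of different probe sets do not compare the levels of the transcripts.

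The myosin heavy chain and SRF were lower. MYH9 (211926_s_at) had 9.20, 9.47 and 9.36 in HHT, against 9.74, 9.74 and 9.70 in vehicle. The conditions did not overlap, and HHT varied more. The difference was -0.38 (SE 0.0971, adjusted p = 0.00789 in limma), but -0.14 at equal medians (adjusted p = 0.451). It was -0.10 when hybridisation controls were set equal (adjusted p = 0.491). SRF (202401_s_at) had 8.48, 8.39 and 8.03 in HHT, against 9.24, 9.09 and 9.04 in vehicle. Its difference was -0.82 (SE 0.140, adjusted p = 6.30e-04), a 1.77-fold lower signal. The third HHT array was the lowest, and without it the change was -0.69, still called. A dim SRF probe set (202400_s_at) had 5.59, 2.51 and 4.52 in HHT, against 6.43, 6.07 and 4.71 in vehicle. It overlapped between conditions and was not called (-1.53, adjusted p = 0.148), and its HHT mean of 4.21 lay under the filter level of 4.80.

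**Figure D2:**
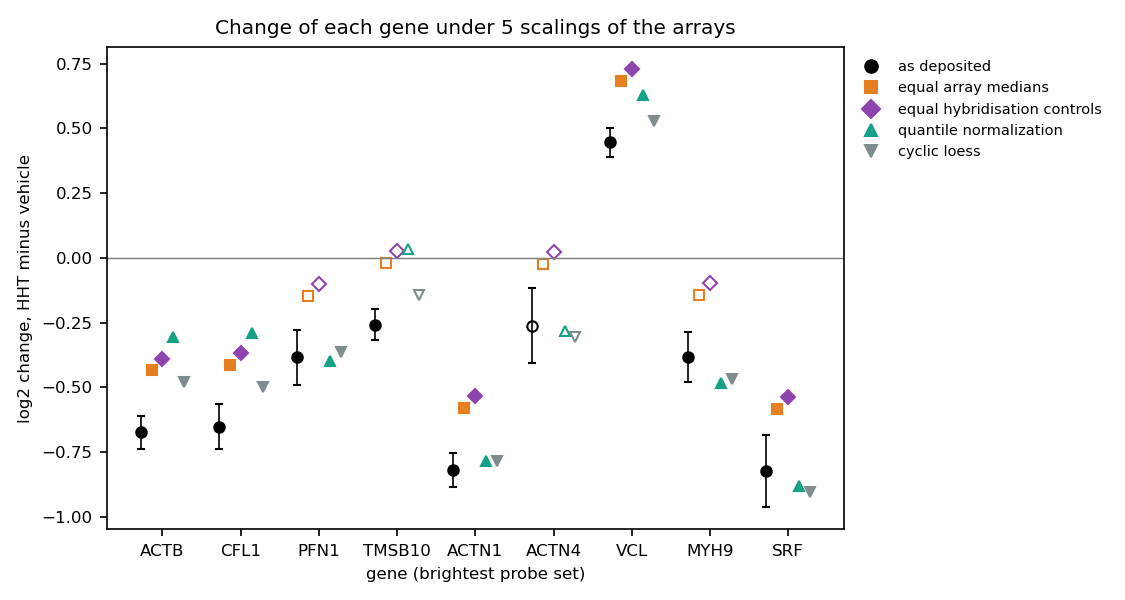
Log2 change, HHT minus vehicle, of each gene at its brightest probe set under 5 scalings of the arrays. Bars are standard errors of the deposited values, filled symbols passed the adjusted p of 0.05 and open ones did not. VCL stays above 0 and ACTB, CFL1, ACTN1 and SRF stay below 0 throughout, while TMSB10 and ACTN4 reach 0.

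Differences taken within an array do not move with a rescaling of the whole array. Relative to the brightest ACTB probe set, VCL was -0.85, -0.86 and -1.03 in HHT, against -2.06, -1.92 and -2.12 in vehicle, a change of 1.12. TMSB10 changed by 0.41, ACTN4 by 0.41 and MYH9 by 0.29 relative to ACTB, and these 3 and VCL did not overlap between conditions (exact permutation p = 0.1 each, two-sided, adjusted p = 0.2 over the 8 genes). PFN1 changed by 0.29 (exact permutation p = 0.2), with overlap at the third vehicle array. CFL1 (0.02), ACTN1 (-0.15) and SRF (-0.15) overlapped (exact permutation p from 0.4 to 0.8). Quantile normalization and cyclic loess reshape each array, and they move these differences. ACTN1 was then at -0.48 after quantile normalization and -0.305 after loess, and SRF at -0.58 and -0.425, all without overlap (exact permutation p = 0.1 each, two-sided). For ACTN4 the lack of overlap was lost under both, at 0.021 and 0.17 (exact permutation p = 0.9 and 0.4). MYH9 overlapped under both as well, at -0.18 and 0.0105 (exact permutation p = 0.2 and 0.9), and PFN1 was at -0.095 and 0.11 (exact permutation p = 0.7 and 0.4). VCL (0.93 and 1.00) and TMSB10 (0.34 under each) stayed above their vehicle values without overlap, and CFL1 was at 0.016 and -0.020. All 8 comparisons share the ACTB values.

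**Figure D3:**
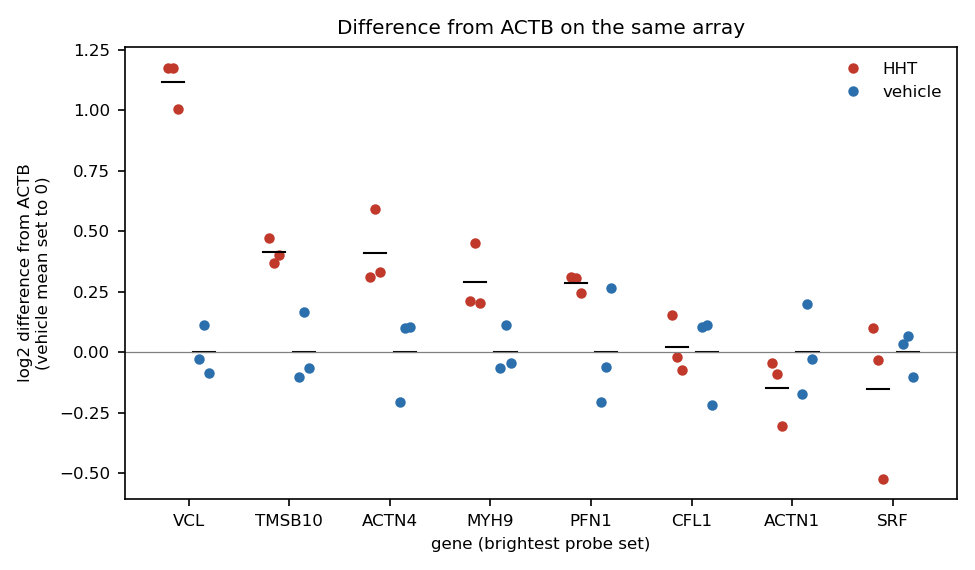
Log2 difference of each gene from ACTB on the same array, with the vehicle mean of each gene set to 0, in HHT (red, left) and vehicle (blue, right), and black bars at the means. VCL is about 1.12 above its vehicle mean, and CFL1, ACTN1 and SRF overlap with vehicle.

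Several of these probe sets are among the brightest on the array, where more signals were called lower than higher in HHT. In the brightest 5% of tested probe sets, with a mean of at least 12.46, 63.3% were called lower and 16.1% higher, with a median change of -0.29. The 25th to 75th percentile of their change ran from -0.51 to 0.0011. ACTB lay below that range, as 15.5% of the 1639 probe sets had a lower change, and so did CFL1 (16.4%). TMSB10 lay near the middle (53.8%), so its lower signal was about that of other bright probe sets. VCL lay near the top, with 92.6% below it. ACTN1 and SRF, below this brightness, fell in ranges of signal where the median change lay between 0.02 and 0.09. PFN1, at -0.38, lay within the 25th to 75th percentile of its range of signal, which ran from -0.415 to 0.40. ACTN4, at -0.26, also lay within that of its range, from -0.53 to 0.48.

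**Figure D4:**
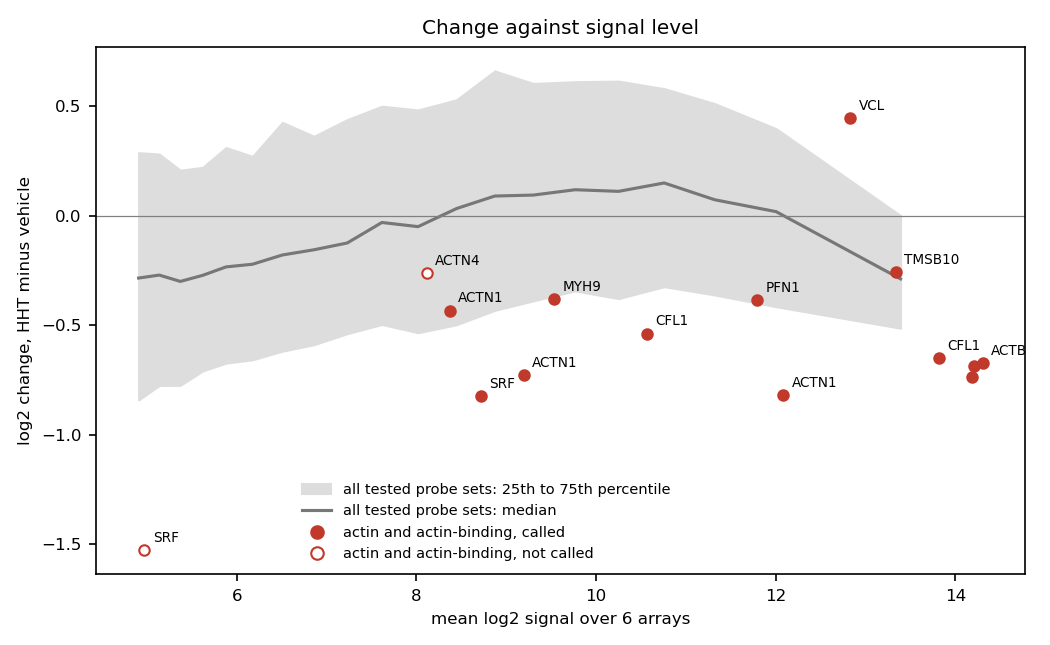
Log2 change, HHT minus vehicle, against the mean log2 signal over the 6 arrays. The grey line and band give the median and the 25th to 75th percentile of all tested probe sets in 20 groups of equal size, and red points are the actin and actin-binding probe sets, open where not called. The grey median falls to -0.29 in the brightest group and is also low, at -0.28, in the dimmest. ACTB, CFL1, SRF and the 2 brightest ACTN1 probe sets lie below the band, and MYH9 lies at its lower edge. The third ACTN1 probe set, PFN1, TMSB10 and ACTN4 lie within the band, and VCL lies above it.

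Lists of other actin pathway genes, 183 genes in all and written with earlier results of these data known, changed in both directions. Of 153 tested, 42 fell and 46 rose, with a median of 0.02, while 24.2% of all 13572 genes tested were called lower and 29.6% higher, with a median of -4.15e-05. Equal medians gave 22 lower and 66 higher, and equal hybridisation controls 21 and 76. Quantile normalization gave 39 and 55, and cyclic loess 40 and 49.

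SRF cofactors had 1 gene lower and 3 higher of 7 tested. ELK1, a ternary complex factor, fell by 0.91 (adjusted p = 3.19e-04 in limma), and MRTFB, an actin-regulated coactivator, rose by 0.71 (adjusted p = 6.11e-05), while a dimmer MRTFB probe set, at -0.92, overlapped and was not called (adjusted p = 0.0808). MRTFA, its close relative, differed by -0.12 (adjusted p = 0.433). Cytoskeletal targets of SRF and MRTF, without the 10 genes, had 5 lower and 3 higher of 15 tested, but 4 and 5 with equal medians. TAGLN2, an actin-binding protein of the calponin family, fell by 1.52 (adjusted p = 1.83e-06). TLN1, the integrin activator talin, rose by 1.54 at its brighter probe set (adjusted p = 7.75e-06) and fell by 0.89 at the other (adjusted p = 0.0345), so its direction is not settled. Immediate early targets of SRF and ternary complex factors had 0 lower and 3 higher of 8 tested by limma. At an unadjusted p under 0.05 there were 0 lower and 4 higher. These counts read each gene at its brightest probe set, and EGR1 had another probe set called lower. DUSP1, a phosphatase of MAP kinases, rose by 1.13 (adjusted p = 1.28e-04) and ATF3, a stress-induced transcription factor, by 0.51 (adjusted p = 0.00601). A dimmer DUSP1 probe set differed the other way, by -0.82, without overlap and not called (adjusted p = 0.0648).

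The Arp2/3 complex, which starts branched filaments, had 8 of its 9 tested genes not called at their brightest probe sets. Over all 13572 genes tested, 6275 were not called. Of the 9, 3 had an unadjusted limma p under 0.05. Other probe sets of ACTR3 and ARPC2 were called lower, and other probe sets of ARPC4 and ARPC5L higher. After quantile normalization 2 of the 9 were called lower and 3 higher. ARPC3 rose by 0.38 (adjusted p = 0.00836 in limma), a call lost with no variance trend (adjusted p = 0.0765). The median of the list was -0.10, or 0.18 with equal hybridisation controls, where 6 were called higher. Its activators and the formins had 6 lower and 9 higher of 21 tested. ABI1, a WAVE complex subunit, rose by 1.03 (adjusted p = 8.81e-07), and FMNL1, a formin of blood cells, by 1.00 (adjusted p = 0.00789). Monomer binding and turnover genes had 5 lower and 5 higher of 16 tested, but 2 and 9 with equal medians and 1 and 9 when hybridisation controls were set equal. LIMK1, a kinase that inactivates cofilin, was at least 2.26-fold lower, with 1 HHT array below the filter level and set to it (adjusted p = 0.0291). That call was lost when HHT replicate 3 or any vehicle replicate was left out (adjusted p from 0.0550 to 0.0949). It was also lost with hybridisation controls set equal (0.0645), with no filter (0.0527) and with no variance trend (0.0572). SSH3, a phosphatase of the slingshot family that acts on cofilin, fell by 1.10 (adjusted p = 0.00377). With a pseudocount of 64 the change of SSH3 was -0.66, still called.

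Capping proteins had 2 lower and 6 higher of 14 tested (0 and 6 with equal medians), led by ADD3, an adducin, at 0.92 (adjusted p = 4.32e-06 in limma), and TMOD2, a tropomodulin, at 0.71 (adjusted p = 0.00280). Bundlers and crosslinkers had 3 lower and 3 higher of 13 tested, but 1 and 5 with equal medians and 1 and 6 when hybridisation controls were set equal. MARCKSL1 fell by 2.33 (adjusted p = 6.13e-08), and LCP1, the plastin of leukocytes, rose by 0.83 (adjusted p = 1.57e-05). Genes that link actin to adhesion sites or the membrane had 4 lower and 4 higher of 15 tested, but 2 and 8 under each of these 2 scalings. FERMT2, a kindlin that activates integrins, rose by 2.28 (adjusted p = 3.46e-05), though its dimmer probe set, at 0.53, was not called. Its vehicle signals of 5.58, 5.07 and 5.60 lay near the filter level of 4.80. With a pseudocount of 64 the change of FERMT2 was 1.34, still called. RDX, the membrane linker radixin, rose by 0.98 (adjusted p = 1.28e-06).

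Myosin II and tropomyosin genes had 2 lower and 5 higher of 12 tested, but 0 and 8 when hybridisation controls were set equal. PPP1R12A, the targeting subunit of myosin phosphatase, rose by 1.03 (adjusted p = 5.65e-05 in limma), and MYLK, the myosin light chain kinase, fell by 1.09 (adjusted p = 0.0110). The MYLK call was lost when hybridisation controls were set equal (-0.80, adjusted p = 0.0532), and with a pseudocount of 64 the change was -0.56, still called. The subunits of the chaperonin that folds actin, with those of prefoldin, had 8 lower and 2 higher of 12 tested, with a median of -0.33. Most of these genes lie in the brightest 5% of probe sets, where 63.3% were called lower, with a median change of -0.29. CCT3 fell by 0.88 (adjusted p = 1.04e-06) and PFDN1 rose by 0.74 (adjusted p = 2.72e-05). With equal medians 3 of this list were lower and 3 higher. The muscle actins ACTC1 (-1.13) and ACTG2 (-0.51) were not called (adjusted p = 0.0888 and 0.235, unadjusted p = 0.0464 and 0.152 in limma), and ACTA1 failed the filter.

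**Figure D5:**
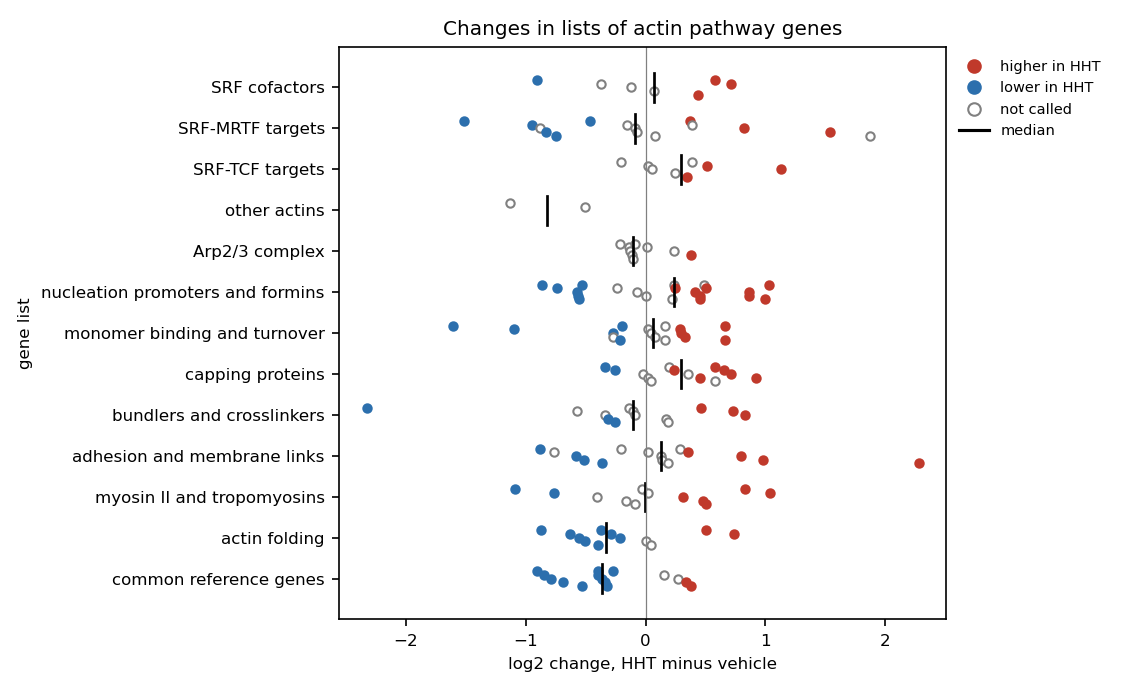
Log2 change, HHT minus vehicle, of each tested gene of the lists described, at its brightest probe set. Red marks genes called higher in HHT, blue those called lower, open circles those not called, and black bars the list medians. The Arp2/3 genes cluster near 0, while the actin folding list and the common reference genes lie mostly below 0.

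ACTB is often used to normalise mRNA measurements, and other genes used for this were lower too. Of 15 common reference genes tested, 11 were lower and 2 higher, with a median of -0.37. With equal medians 5 were lower and 4 higher. As deposited, 24.2% of all genes tested were called lower and 29.6% higher. Most of the reference genes lie in the brightest 5% of probe sets. There 63.3% were called lower and 16.1% higher, with a median change of -0.29. PGK1 fell by 0.90 (adjusted p = 1.59e-07 in limma), HPRT1 by 0.84 (adjusted p = 9.63e-07) and GAPDH by 0.40 (adjusted p = 9.84e-04). The GAPDH call was lost at equal medians (-0.16, adjusted p = 0.229). Quantile normalization left -0.0088 (adjusted p = 0.901). The call was also lost when hybridisation controls were set equal (-0.12, adjusted p = 0.262). On the same arrays, the ACTB control mean minus the GAPDH control mean was -1.58, -1.60 and -1.57 in HHT, against -1.17, -1.30 and -1.19 in vehicle. Every HHT array lay below every vehicle array, by -0.36 on average (exact permutation, two-sided, p = 0.1). Rescaling whole arrays leaves this difference as it is.

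Markers of the labelled cell type were present. KIT, MPO, PTPRC and RUNX1T1 averaged between 12.63 and 14.22 in HHT and between 12.43 and 14.83 in vehicle, CD34 averaged 8.03 in HHT and 9.20 in vehicle, and CD38 lay below the filter level in both. In the myeloid blast list 6 of 7 markers exceeded that level in each condition, 3 fell and 1 rose, and the log2 of their summed signal was 15.42 to 15.47 in HHT and 15.97 to 16.12 in vehicle. Of 6 fibroblast and epithelial markers, 4 exceeded the level in each condition, and EPCAM had a mean of 12.93 in HHT and 13.69 in vehicle. Their summed log2 signal was 12.89 to 13.05 in HHT and 13.70 to 13.75 in vehicle, and none of them was at 0 on any array. Of 5 lymphoid markers, 5 in HHT and 4 in vehicle exceeded the level, with summed log2 signals of 11.81 to 11.95 in HHT and 11.74 to 11.77 in vehicle. Nearly all of that sum was CD3D, with a mean of 11.76 in HHT and 11.62 in vehicle. The next brightest, CD79A, had means of 7.15 and 7.44. Of 6 monocyte and granulocyte markers only 3 passed the filter, and none of these was called at its brightest probe set, though ITGAM had another probe set called higher. Both erythroid markers with a probe set were tested, and KLF1 was lower (adjusted p = 0.0497 in limma). Under the 4 other scalings neither was called. The part of these markers in the actin results was not tested. A lower transcript share and less transcript per cell cannot be told apart in RNA of whole cultures.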

How the data were processed

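Per the labels, RNA of 6 Kasumi-1 samples was biotin-labelled by 3' in vitro transcription and measured on Affymetrix arrays. The authors deposited log2 signals, and the submitters' processing notes name MAS5. Antilog trimmed means of all arrays lay between 500.06 and 500.07, the trace of a common scaling. The sources used here give no detection calls or genome build.

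Control probe sets (62) and the 40% of the others with the lowest mean over 6 arrays (below 4.80) were left out, and 32768 were tested. No pseudocount was added. HHT was compared with vehicle by limma 3.58.1 in R 4.3.3 (lmFit, eBayes with a variance trend), with Benjamini-Hochberg adjustment over all tested probe sets and a threshold of 0.05. SE is that of the fit. Single-gene symbols came from the platform annotation (41091 probe sets). For 41037 of them the symbol was taken from RefSeq of GRCh38.p14 by Entrez ID, whether or not it differed. Each gene was read at the brightest of its single-gene probe sets. Control averages and differences within arrays had exact permutation tests. The fit was tested on simulated data. Arrays limit precision by their number. No 2 arrays held identical values.

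The members, the lists and the tests were chosen with earlier results of these data known. One list counted in the pathway totals is not reported here. Named were all members, the 2 called genes of each list with the largest change, and GAPDH. Others were named because a member or marker check turned on them. Alternatives were a pseudocount of 64, 4 other scalings, no filter, a 60% filter, other variance models, a replicate block, an adjusted p under 0.01, and each array left out.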

Additional observations from a re-analysis of the deposited data

How the results depend on the processing

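Of the 15 tested probe sets, 12 were lower and 1 higher as deposited. Between 11 and 12 were lower when each array was left out in turn, and 7 with equal medians. Of the listed pathway genes, 42 were lower and 46 higher. Equal medians gave 22 lower, and equal hybridisation controls 21 lower and 76 higher. The ACTB control difference of -0.78 was -0.54 with equal medians, -0.50 when hybridisation controls were set equal and -0.60 after quantile normalization. With hybridisation controls set equal, TMSB10 turned to 0.025 and ACTN4 to 0.022, and TMSB10 was 0.034 after quantile normalization. Relative to ACTB, quantile normalization gave -0.095 for PFN1, -0.48 for ACTN1, 0.021 for ACTN4, 0.93 for VCL, -0.18 for MYH9 and -0.58 for SRF, and cyclic loess gave 0.17 for ACTN4, 1.00 for VCL and 0.0105 for MYH9. The cause of these shifts was not tested. PFN1 and TMSB10 lost their calls without a variance trend (adjusted p = 0.0821 and 0.0618 in limma), and PFN1 at an adjusted p under 0.01. The replicate numbers are shared between conditions, but deviations of same-numbered arrays correlated at 0.065, -0.014 and 0.049, and not every array correlated best with its own number. With the replicate block 12 probe sets were lower and 1 higher, 41 pathway genes were lower and 49 higher, and 15468 probe sets were called in place of 15184.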

Other observations

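Among the 153 listed pathway genes that were tested, 100 had several tested probe sets, and 6 of these had probe sets called in opposite directions (ELK4, TLN1, PDLIM5, SSH2, SPTBN1 and MYL12A). ELK4, a ternary complex factor that works with SRF, differed by 0.58 and 1.46 at probe sets with mean signals of 11.28 and 6.44, and by -2.07 at one with a mean of 6.21 (limma adjusted p = 8.52e-05, 0.00191 and 4.13e-04). MYL12A, a regulatory light chain of nonmuscle myosin II, differed by 0.83 at its bright probe set, with a mean of 12.28, and by -0.95 at one with a mean of 6.495 (adjusted p = 2.30e-05 and 0.0326). SSH2, a slingshot phosphatase, differed by 0.67 at a mean of 10.95 and by -0.76 at a mean of 7.06 (adjusted p = 2.30e-05 and 0.0156). These genes were picked after their values were seen, and the sources used here do not say which transcripts each probe set reads.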
